A study of Homo sapiens with 2 samples.

Results

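The genes described are 9 genes of the MHC class I pathway, namely the heavy chains HLA-B, HLA-C, HLA-E and HLA-F, the light chain B2M, the peptide transporter subunits TAP1 and TAP2, the loading factor TAPBP and the transcriptional regulator NLRC5. They were chosen by symbol, each symbol matched 1 Ensembl identifier on the primary assembly, and they make up 9 of the 60711 genes listed. RNA-sequencing was carried out on A549 cells, an established human lung cancer line, transfected with a control siRNA or with an siRNA against MILIP and harvested 48 h later. MILIP is a long non-coding RNA that is also named MAFG-AS1, since its gene lies next to MAFG. There was 1 library of total RNA for each of the 2 conditions, both from cells without any other modification, so the data describe 1 culture of 1 cell line per condition.

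MHC class I molecules display peptides from inside the cell to CD8+ T cells and to natural killer cells. Proteasomes cut the peptides, the transporter formed by TAP1 and TAP2 moves them into the endoplasmic reticulum, and TAPBP (tapasin) holds empty heavy chains with B2M at the transporter until a suitable peptide has bound. NLRC5 drives transcription of the heavy chain genes and B2M through a shared promoter module, and interferons and NF-kB raise it further. Tumour cells often carry low levels of this machinery.

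Among the 9 genes, TAP2 and TAPBP were lower with MILIP siRNA and none was higher, while the heavy chains, B2M, TAP1 and NLRC5 stayed within 1.5-fold. TAP2, one of the transporter subunits, was 3.88-fold lower (95% limits 3.03 to 5.00), and TAPBP was 1.57-fold lower (1.48 to 1.66). Values are scaled read counts as deposited. A gene counts here as higher or lower once value + 1 differed by 1.5-fold or more, and the limits are Clopper-Pearson limits on the ratio of the unmodified values, which cover counting error only. With 1 library per condition no test was possible and no p-value is given, so whether any of these differences is larger than the spread between cultures cannot be told. Less RNA per cell and fewer cells of a kind cannot be told apart in such bulk samples either.

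Over all 13521 genes with a mean value of at least 1, 11.1% were at least 1.5-fold higher and 13.8% at least 1.5-fold lower. At a 2-fold threshold these shares were 3.48% and 4.62%. All 9 class I genes were among the genes tested, with 0 higher and 2 lower at 1.5-fold. At 2-fold, 1 was lower. The count of 2 of 9 is read against that background, and nothing particular to these genes is drawn from it. The 9 genes had a median log2 ratio of -0.08 and all genes tested had one of -0.03, where a log2 ratio is the difference in log2(value + 1), MILIP siRNA minus control siRNA. Counting limits of the ratio included 1 for 6 of the 9 genes, lay above 1 for B2M, and lay below 1 for TAP2 and TAPBP.

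**Figure D1:**
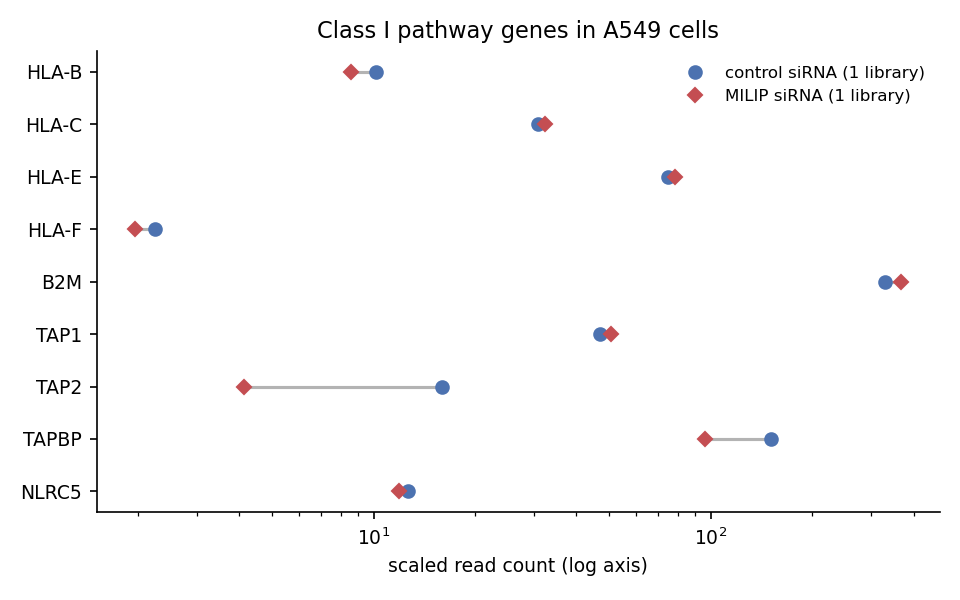
Scaled read counts (log axis) of the 9 class I pathway genes in the control siRNA library (circles) and the MILIP siRNA library (diamonds) of A549 cells, with 1 library per condition. TAP2 moves from 16.0 to 4.12 and TAPBP from 151.0 to 96.5, while the paired points of the other genes lie close together.

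The 2 libraries were of similar depth. The values correspond to 20300800 reads for control siRNA and to 19460956 for MILIP siRNA, so that 1 read was worth 0.0501 and 0.0503. The targeted RNA, MILIP, fell from 29.5 to 3.22, which is 9.15-fold lower (7.06 to 12.04). The 5 epithelial markers, CDH1, EPCAM, KRT8, KRT18 and KRT19, were all present, with a summed value of 3279 and 3708, and CDH1, EPCAM and KRT19 were higher with MILIP siRNA. Of 11 leukocyte and endothelial markers, 5 were listed at 0 in both libraries, LYZ, VWF, FCER1G and PECAM1 among them, and PTPRC, CD3E and MS4A1 had no value. CD79A, CD14 and ITGAX were low and were all higher with MILIP siRNA, the summed value of the list being 13.8 and 32.9. The part of this difference in the results below was not tested.

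The heavy chains carry the peptide groove and define what is presented. HLA-C, which presents peptides to T cells and binds killer-cell receptors, was at 30.8 in control cells and at 32.3 after MILIP siRNA, a ratio of 1.05 (0.937 to 1.17). HLA-E, the non-classical ligand of the receptor CD94/NKG2A, had 74.9 and 78.6, also a ratio of 1.05 (0.976 to 1.13). Neither library stood above the other beyond counting error for these 2 genes. HLA-B, the most polymorphic of the heavy chains, had 10.2 and 8.60, a ratio of 0.846 (0.686 to 1.04). HLA-F, a non-classical chain that can reach the surface without peptide, was the lowest of the 9 genes at 2.25 and 1.96, and its 45 and 39 reads gave a ratio of 0.870 with limits from 0.552 to 1.37. These limits include a fall of HLA-F of up to 1.81-fold and a rise of up to 1.37-fold, so neither could be excluded at this depth. Summed over the 4 heavy chains the value was 118 in control cells and 121 after MILIP siRNA, a ratio of 1.03 (0.971 to 1.09).

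B2M, the light chain that every class I molecule needs, was the most abundant of the 9 genes. It was measured at 328.9 in control cells and at 368.3 after MILIP siRNA, from 6566 and 7324 reads. The ratio of 1.12 had limits from 1.08 to 1.16 and lay well short of the 1.5-fold threshold. B2M has a low GC content for this group, 39.4% in its transcript against 54.8% to 60.2% in the others, and after removal of the trend of the log2 ratio with GC content its log2 ratio was 0.40 in place of 0.16.

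TAP1 and TAP2, the paired subunits of the transporter, differed from each other in these libraries. TAP1 was at 46.9 in control cells and at 50.5 after MILIP siRNA, a ratio of 1.08 (0.985 to 1.18). TAP2 had 16.0 and 4.12, from 319 and 82 reads, a ratio of 0.258 (0.200 to 0.330). The log2 ratio of TAP2 was -1.73 on the log2(value + 1) scale and -1.95 without the added 1, and it was 97th from the lowest, with 0.710% of the genes tested below it. The ratio of TAP2 to TAP1 was 0.341 in control cells and 0.0816 after MILIP siRNA, a change of 0.239 (0.183 to 0.312) that does not depend on how the libraries were scaled.

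TAPBP links the transporter to the heavy chain and favours peptides that bind tightly. It went from 151.0 in control cells to 96.5 after MILIP siRNA, from 3015 and 1919 reads. The log2 ratio of -0.64 was past the threshold, but the counting limits of the ratio, 0.603 to 0.677 around 0.639, spanned the 1.5-fold line. Of the genes tested, 11.96% had a lower log2 ratio than TAPBP, so a difference of this size was common in these libraries. Against TAP1, TAPBP changed from 3.22 to 1.91, a factor of 0.593 (0.532 to 0.660). TAP2 fell further than TAPBP, the ratio of their ratios being 0.404 (0.311 to 0.520).

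NLRC5, the class I transactivator, was at 12.6 in control cells and at 11.9 after MILIP siRNA. The ratio was 0.944 with counting limits from 0.787 to 1.13. A difference between the libraries was therefore not detectable at this depth. Relative to B2M, a gene that NLRC5 is known to drive, TAP1 also kept its ratio within counting error, at 0.963 (0.874 to 1.06).

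**Figure D2:**
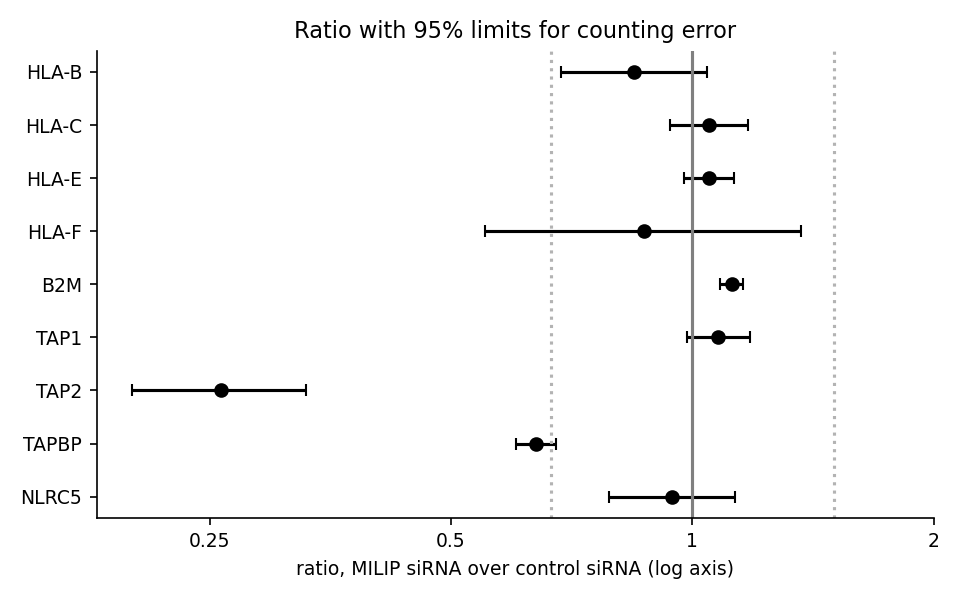
Ratio of the MILIP siRNA value to the control siRNA value (log axis) for each class I pathway gene, with 95% Clopper-Pearson limits for counting error as bars. The solid line marks a ratio of 1 and the dotted lines 1.5-fold in each direction, and TAP2 at 0.258 is the gene whose limits lie wholly past a dotted line.

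Levels between genes were compared per kilobase of exon. With control siRNA the order of the scaled count per kilobase was B2M at 54.1, TAPBP at 29.9, HLA-E at 25.2, HLA-C at 12.3, TAP1 at 9.76, HLA-B at 3.33, TAP2 at 2.50, NLRC5 at 1.02 and HLA-F at 0.519. The 95% counting limits of neighbours in this order did not overlap, but they do not cover the choice of length. The length used was that of all annotated exons of a gene, 6390 bases for TAP2, of which 4326 lie outside the overlapping gene described below. Whether reads in the shared bases were counted is not known. The place of TAP2 in either library, and its change of place, therefore depend on the length used. The order of the other genes holds for this length only, since all exons of a gene exceed its transcript unequally. B2M has 6079 and 1705 bases, and HLA-E has 2975 and 2601. With MILIP siRNA, HLA-E at 26.4 stood above TAPBP at 19.1 and NLRC5 at 0.962 above TAP2 at 0.645, and the rest of the order was as before. TAP2 then overlapped HLA-F in its counting limits, 0.513 to 0.801 against 0.321 to 0.617 per kilobase. In this order TAP2 and TAPBP each moved down 1 place. The move of TAPBP depends on the length as well, 5056 bases for all its exons against 1888 for its transcript. TAPBP had a higher value than HLA-E in both libraries and a shorter transcript. By transcript length it therefore stayed above HLA-E.

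Some of these genes share sequence with others, and their values are uncertain to that extent. In GENCODE release 29 (GRCh38) TAP2 lies at chr6:32821833-32838780 on the minus strand and shares 32.3% of its exon bases with AL669918.1, a same-strand gene of 15 exons that runs through TAP2 and HLA-DOB. The first 11 of the 12 exons of the pair of TAP2 transcripts compared lie inside AL669918.1, and these hold 36.3% of the bases of the transcript with the longer last exon and 80.5% of those of the other. Of the 4326 exon bases of TAP2 outside it, 4111 (95.03%) lie beyond the last shared exon, and the last exons of these transcripts have 3620 and 486 bases. AL669918.1 was listed with no value, and HLA-DOB was listed at 0 in both libraries. How reads in the shared exons were counted is not given in the sources used here, so which exons the TAP2 value rests on is not known, and the part of this overlap in the lower value was not tested.

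TAPBP (chr6:33299694-33314387, minus strand), B2M (chr15:44711487-44718877, plus strand) and NLRC5 (chr16:56989485-57083531, plus strand) shared no exon bases with another gene and no 50-base stretch of their transcript with another gene's transcript. TAP1 (chr6:32845209-32853978, minus strand) shared 9.49% of its exon bases with PSMB8-AS1 on the opposite strand. Of the heavy chains, HLA-F (chr6:29722775-29738528, plus strand) had 28.5% and HLA-B (chr6:31269491-31357188, minus strand) 17.8% of exon bases opposite another gene. The share of 50-base stretches found in other genes was 41.7% for HLA-F, 21.0% for HLA-B, 6.79% for HLA-C (chr6:31268749-31272130, minus strand) and 5.76% for HLA-E (chr6:30489467-30494205, plus strand). For TAP1 this share was 15.2%, with PSMB8-AS1, AL669918.1 and TAP2 as the other genes. The use of strand in counting is not given in the sources used here. In the overlapping bases, reads of the opposite genes therefore cannot be told apart from those of HLA-F, HLA-B and TAP1.

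Promoters were searched for the core of the interferon-stimulated response element, since interferon input is what these genes are known to share. The motif GAAANNGAAA was searched on both strands of RefSeq promoters (GRCh38.p14), each running from 250 bases before the start site to 50 after it, and 3.57% of 35116 promoters held it. A promoter was found for 7 of the 9 genes, the exceptions being HLA-E and NLRC5. Of the 7, 5 held the motif, namely HLA-F, B2M, TAP1, TAP2 and TAPBP, and HLA-B and HLA-C did not. The 30 bases around each match are shown 5′ to 3′ on the strand of the gene, with the matched bases in capitals, because they set the 2 genes that fell beside 3 that stayed within 1.5-fold.
TAP2: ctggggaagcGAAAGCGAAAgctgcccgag
TAPBP: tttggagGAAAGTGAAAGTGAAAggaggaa
B2M: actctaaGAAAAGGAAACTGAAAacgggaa
TAP1: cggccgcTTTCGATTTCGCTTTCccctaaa
HLA-F: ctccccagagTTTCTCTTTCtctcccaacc

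The windows lie at chr6:32838778-32838807 (minus strand) for TAP2, chr6:33314076-33314105 (minus strand) for TAPBP, chr15:44711366-44711395 (plus strand) for B2M, chr6:32853816-32853845 (minus strand) for TAP1 and chr6:29723268-29723297 (plus strand) for HLA-F. TAPBP, B2M and TAP1 each held 2 overlapping matches and TAP2 and HLA-F 1, with TAP1 and HLA-F matching on the strand opposite to the gene. The match nearest the start site began 58 bases before it in TAP2 and 14 in TAPBP, against 138 in B2M, 128 in TAP1 and 156 in HLA-F. The RefSeq start site used lay 309 bases from the GENCODE gene start for TAPBP, 274 for TAP1 and 659 for HLA-F, and within 41 bases for the other 4 genes. Another 3 motifs were searched in the same way. GGGNNTTNCC, a kappa-B-like motif, was in 4 of the 7 promoters (HLA-B, B2M, TAP1 and TAPBP) and in 5.68% of all promoters. CCAAT was in 5 of 7 (34.6% of all) and was not found in those of TAP2 and TAPBP, and TGACG, the core of the cyclic AMP response element, was in 4 of 7 (24.6% of all), including TAP2. Matches of different motifs did not overlap in these promoters. A match describes the letters in the window only.

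Genes that act with the class I molecules were examined as lists. Of the 80 genes in 9 lists, 59 could be tested, 5 were higher, 11 were lower and the median log2 ratio was -0.01. Over all genes tested, 11.1% were higher and 13.8% lower. Among the other class I heavy chain loci, 4 were listed at 0 in both libraries and HLA-G and HLA-J had no value.

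**Figure D3:**
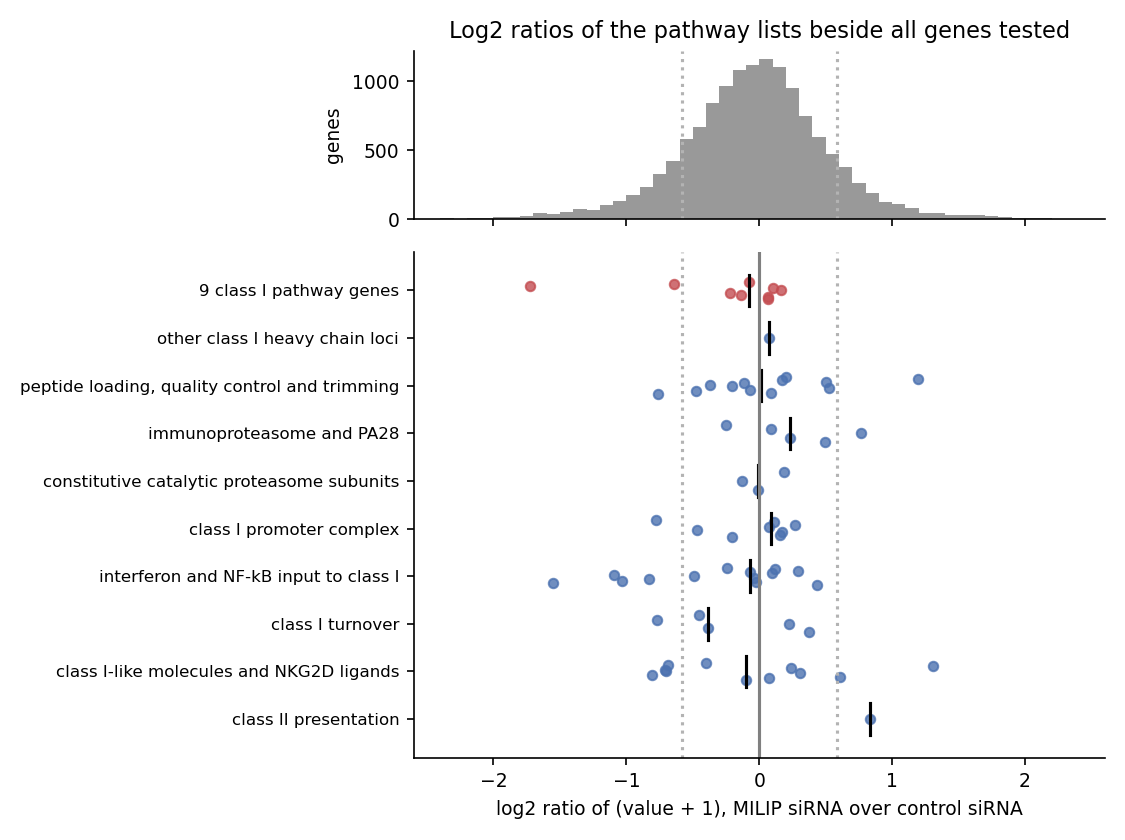
Log2 ratios of (value + 1), MILIP siRNA over control siRNA, for the tested genes of each class I pathway list (points, with the list's median as a black bar) below a histogram of all 13521 genes tested. Dotted lines mark 1.5-fold, and the 9 class I pathway genes have TAP2 and TAPBP to the left of the lower line.

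Chaperones and peptidases of the loading step went in both directions. Of 12 genes tested, 1 was higher and 1 lower, with a median log2 ratio of 0.01. CALR, the lectin chaperone of the loading complex, rose from 614 to 1406, a log2 ratio of 1.19. LNPEP, a peptidase of cross-presentation, fell from 71.6 to 41.8. PDIA3, the disulphide isomerase bound to tapasin, had 284 and 402, and TAPBPL, the tapasin-related editor, had 6.26 and 9.45, and neither was past the threshold on the log2(value + 1) scale. The trimming enzymes TPP2 (60.3 and 43.0) and ERAP1 (33.2 and 25.5) did not pass it either. CALR and PDIA3, which sit in the same complex as TAPBP, thus had values above control while TAPBP had a value below it. Of the 50-base stretches of their transcripts, 36.5% for PDIA3 and 9.71% for CALR occur in other annotated genes, so their values are uncertain to that extent.

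Of 8 proteasome genes tested, 1 was past the 1.5-fold threshold. PSMB8, an inducible catalytic subunit whose gene lies between TAP2 and TAP1, rose from 14.6 to 25.5, a ratio of 1.75 (1.51 to 2.03), and was the 1 gene of 5 past the threshold in the immunoproteasome list. Of the exon bases of PSMB8, 20.6% lie opposite PSMB8-AS1 or PSMB9. In these bases reads of these genes cannot be told apart from its own, since the use of strand is not given. No 50-base stretch of the PSMB8 transcript occurs in another annotated gene's transcript. The other inducible subunits PSMB9 (20.8 and 17.3) and PSMB10 (4.21 and 4.53) and the activator subunits PSME1 (105 and 149) and PSME2 (88.2 and 103) were within it. The 3 constitutive subunits PSMB5 (120 and 119), PSMB6 (216 and 246) and PSMB7 (203 and 185) were within it as well. Counting limits of the ratio included 1 for PSMB10 and PSMB5 and did not for the other 6 genes.

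Of the promoter-binding factors that work with NLRC5, 1 of 8 was lower and none was higher. RFX5, the DNA-binding subunit of the RFX complex, fell from 71.1 to 41.0, a log2 ratio of -0.78. CREB1 (69.8 and 50.03), NFYA (28.2 and 24.4), ATF1 (19.7 and 23.9), NFYC (49.4 and 55.7) and RFXANK (20.03 and 22.4) stayed within 1.5-fold. The median of the list was 0.09.

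Interferon and NF-kB signaling, which raises class I transcription, had 4 of 13 tested genes lower and none higher, and a median log2 ratio of -0.07. JAK2, a kinase of the interferon gamma receptor, fell from 17.1 to 5.18, a log2 ratio of -1.55. IFNAR2, a subunit of the type I interferon receptor, fell from 15.7 to 6.84, but 86.8% of the 50-base stretches of its transcript occur in other annotated genes. NFKB1, a subunit of NF-kB, fell from 59.9 to 28.7, a log2 ratio of -1.03. The highest log2 ratios of the list did not reach the threshold, with IFNGR1 (45.7 and 62.0), IRF2 (24.9 and 30.7) and STAT2 (40.3 and 43.9) leading. With the GC trend removed, IFNGR1 was past the threshold at 0.61 and the median of the list was -0.18.

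Among 5 genes that remove class I molecules from the cell surface, 1 was lower and the median log2 ratio was -0.39. MARCHF4, a membrane ubiquitin ligase, fell from 24.9 to 14.2. SUSD6 (18.5 and 24.3), TMEM127 (94.8 and 72.2) and WWP2 (37.8 and 27.3), which act together in class I degradation, and MARCHF9 (18.3 and 21.5) were not past the threshold.

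Of the 9 genes, 7 lie on chromosome 6 within 3.59 Mb, from HLA-F to TAPBP. Of 292 other genes annotated there, 75 were tested, 14 were higher (18.7%) and 9 lower (12%), with a median log2 ratio of 0.10. TAP2 stood low among them, with 1 gene below it, HSD17B8 at -1.87, which is named after its value was seen. The tested genes on either side of TAP2 in gene order were PBX2 at 0.64 and PSMB8 at 0.77. Genes between them that were not tested, such as HLA-DOB, give no ratio.

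**Figure D4:**
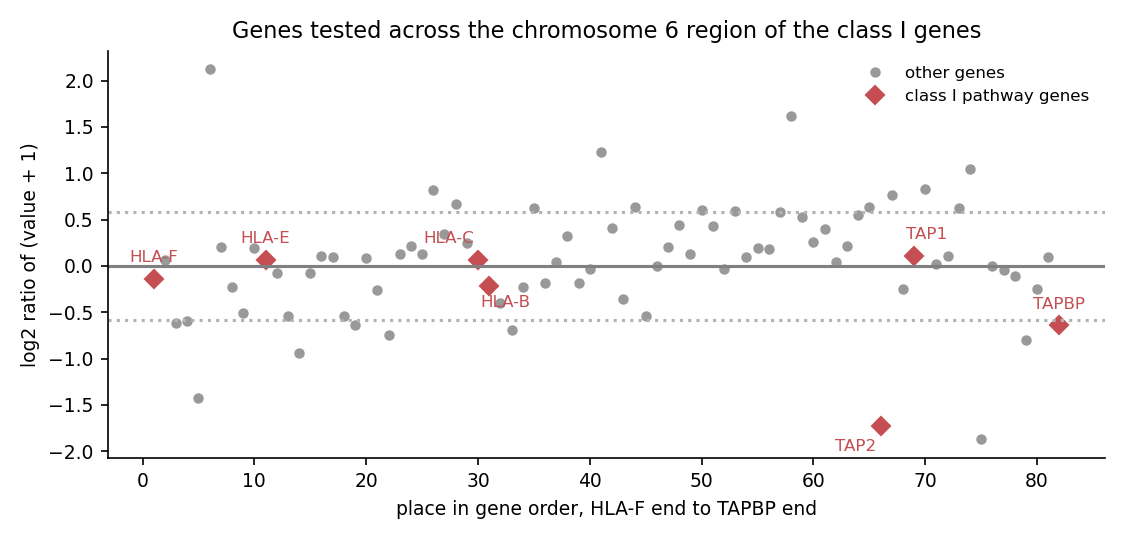
Log2 ratio of (value + 1), MILIP siRNA over control siRNA, for the genes tested between HLA-F and TAPBP on chromosome 6, in gene order, with class I pathway genes as red diamonds and other genes as grey points. Dotted lines mark 1.5-fold, and TAP2 at -1.73 lies between genes above 0.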

How the data were processed

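RNA-seq of A549 cells was analysed from 1 table of 60711 genes, with 1 library per condition. The submitters' processing notes name TopHat2 2.0.12, HTSeq 0.6.1 and the build hg38. The annotation release, the use of strand and the scaling are not given in the sources used here. The authors deposited 1 signal per gene and library under a name for read counts. All values above 0 were whole multiples of a fixed step (tolerance 0.01 of a step), taken as 1 read, and the lowest were 20 steps, so a 0 stands for a low value too. Whether the cutoff was 20 reads or a value of 1 cannot be told. Columns with the authors' fold change, p-value, q-value and call were not used.

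A pseudocount of 1 was added before log2 ratios were taken for 13521 genes whose mean value was 1 or more, out of 27856 with any value. No test was run. Ratios carry 95% Clopper-Pearson limits on the reads, scaled by the step, and levels Poisson limits. Lengths, GC content (99.1% of genes, 50 bins) and overlaps came from GENCODE 29. The calculation was tested on simulated data. Scripts ran in Python 3.11.15 with scipy 1.17.1, numpy 2.4.6 and pandas 2.3.3, and plots were drawn with matplotlib 3.10.9.

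The class I genes and the gene lists were chosen with earlier results of these data known. The genes named are the 9 genes, MILIP and, of each list, the 3 highest and 3 lowest log2 ratios, or all genes of lists with under 6 tested. No gene was ranked by likeness of pattern, since 2 libraries do not allow it. The alternatives were pseudocounts of 0.1 and of none, scaling by the median of ratios or by the total of listed reads, no filter, a mean of at least 5, the GC trend removed and a 2-fold threshold. Some genes of the lists are counted but not reported here by name.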

Additional observations from a re-analysis of the deposited data

How the results depend on the processing

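No paired analysis was possible because there is 1 library per condition, and none could be left out. TAP2 and TAPBP were lower and no class I gene was higher under each of the alternatives except the 2-fold threshold, which left 1 gene lower, TAP2. Their log2 ratios ranged from -1.95 to -1.68 and from -0.71 to -0.59, so TAPBP stayed close to the threshold. A mean of at least 5 left 8 genes, without HLA-F. Among single genes, B2M moved beyond its counting limits in 2 of the alternatives, to 0.22 when scaled by the total of listed reads and 0.40 with the GC trend removed. Of the values for the lists, 23 moved and 181 did not. Without the GC trend, LNPEP at -0.56 (from -0.76) fell just short of the threshold, and the loading list had 2 genes higher. The direction of HLA-C and HLA-E turned to -0.03 and -0.02 there, within counting error. Depth limits HLA-F most.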

Other observations

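Class I-like molecules and ligands of the activating receptor NKG2D gave 2 of 11 tested genes higher and 4 lower, with a median log2 ratio of -0.10. RAET1G, an NKG2D ligand, rose from 1.65 to 5.58 (33 and 111 reads), and FCGRT, the neonatal Fc receptor that pairs with B2M, rose from 33.9 to 52.2. The log2 ratio of FCGRT was 0.61, and 0.43 with the GC trend removed, which is short of the threshold. Among genes with a mean value of 5 or more, 1 was higher and 2 were lower. The NKG2D ligands ULBP1 (3.56 to 1.61) and ULBP3 (4.31 to 2.26) and the metabolite-presenting MR1 (20.1 to 11.9) fell. MICB, which also fell, from 29.5 to 17.95, is named after its value was seen. ULBP2 had 4.007 and 5.18 and was within 1.5-fold. NKG2D ligands therefore stood on both sides of the threshold in the same pair of libraries, with RAET1G alone on the higher side. Of the 50-base stretches of the RAET1G transcript, 25.6% occur in other annotated genes.

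Of 12 class II presentation genes, 6 had no value, and CIITA, CD74, HLA-DOA and HLA-DOB were listed at 0 in both libraries. HLA-DMA, the peptide exchange factor, rose from 1.25 to 3.02 (25 and 60 reads), the 1 gene of the list that was tested. Its partner HLA-DMB had a 0 in the control library and 1.76 in the other, and was not tested.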
